A study of Mus musculus with 6 samples.

Results

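The 8 genes described here are long noncoding RNAs (lncRNAs) known from neurons: Malat1, Neat1, Miat, Meg3, Rian, Mirg, Snhg11 and Pantr1. They were taken by gene name from the deposited table, where each name occurs once, and make up 8 of its 55414 mouse genes. The libraries come from fluorescent neurons of the medial mammillary nucleus, a cell group of the posterior hypothalamus, aspirated with glass electrodes from papain-treated slices of mice labelled male. PV-positive neurons, labelled through the calcium-binding protein parvalbumin, gave 3 libraries (PV replicates 6, 7 and 8), and Drd2-positive neurons, labelled through the D2 dopamine receptor, gave 3 (Drd2 replicates 1, 2 and 3). The series calls them biological replicates. Neither strain nor age, nor what drove the fluorescence, nor how many cells or mice each library holds is stated in the labels. Nothing says that the libraries come from separate animals, so p-values rest on the spread between these libraries. In limma, the test used, the spread of each gene is also pulled toward that of other genes of like level.

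Long noncoding RNAs are transcribed and mostly spliced like messenger RNAs but encode no known protein, and many stay in the nucleus. Malat1 collects at nuclear speckles, bodies rich in splicing factors; Neat1 is the RNA scaffold of paraspeckles, another nuclear body; Miat, also called Gomafu, forms its own nuclear spots in neurons and binds splicing factors. Meg3, Rian and Mirg lie in one imprinted domain, Dlk1-Dio3, where they are transcribed from the maternal chromosome, and Rian and Mirg carry small nucleolar RNAs (snoRNAs) and microRNAs. Snhg11 is a snoRNA host gene abundant in neurons, and Pantr1 is transcribed beside Pou3f3, a transcription factor gene of the developing brain.

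In GENCODE M21 (mm10), Malat1 (ENSMUSG00000092341) is at chr19:5795690-5802672 and Neat1 (ENSMUSG00000092274) at chr19:5824708-5845478, both on the minus strand and each with 1 exon block. Miat (ENSMUSG00000097767) is at chr5:112213228-112229395 on the minus strand. Meg3 (ENSMUSG00000021268), Rian (ENSMUSG00000097451) and Mirg (ENSMUSG00000097391) follow each other on the plus strand at chr12:109541001-109571726, chr12:109603940-109661716 and chr12:109729764-109749460. Snhg11 (ENSMUSG00000044349) is at chr2:158375638-158386145 on the plus strand, and Pantr1 (ENSMUSG00000060424) at chr1:42590782-42694842 on the minus strand. GENCODE M21 types Snhg11 as protein coding and RefSeq as lncRNA; the other 7 are long noncoding in both. Exons summed per gene run from 4458 bases (Pantr1) to 20771 bases (Neat1).

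The stretches below come from the pair whose PV and Drd2 libraries did not overlap, Malat1 and Miat. Any link between these sequences and that difference was not tested. Near its 3′ end Malat1 carries an element known to fold into a triple helix that stabilises the RNA. The other members were not searched for this element. The longest GENCODE transcript runs on past it, ending 378 bases from the start of the first U-rich motif, and the element lies at chr19:5795973-5796073 (GRCm38, minus strand), with its U-rich motifs and A-rich tract in capitals, written as DNA:
Malat1 3′ stretch: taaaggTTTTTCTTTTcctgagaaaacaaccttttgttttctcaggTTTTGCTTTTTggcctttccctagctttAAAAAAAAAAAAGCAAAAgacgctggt
Miat is known for repeats of the letters TACTAAC, which the splicing factor Sf1 binds. The longest Miat transcript holds 6 copies within 689 bases, all of them in chr5:112217311-112217458 and chr5:112216754-112216810 (GRCm38, minus strand), with the copies in capitals:
Miat stretch A: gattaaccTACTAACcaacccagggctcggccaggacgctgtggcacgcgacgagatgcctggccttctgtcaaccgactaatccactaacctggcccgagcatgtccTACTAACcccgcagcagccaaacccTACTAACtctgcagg
Miat stretch B: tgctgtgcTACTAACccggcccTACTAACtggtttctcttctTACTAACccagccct
Read on the transcript strand only, TACTAAC occurs at least once in 4.58% of the longest transcripts of 13375 long noncoding genes (Snhg11 included), and 2 genes, Miat itself being 1 of them, have at least 6 copies. Among the other members Neat1 had 1 copy and the remaining 6 had none.

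The promoters of the same pair, 250 bases before to 50 after the start from RefSeq (GRCm38.p6), are given with capitals for TGACG, the core of the cAMP response element, and for GGGCGG, the GC box, each searched on both strands:
Malat1 promoter, chr19:5802623-5802922, minus strand: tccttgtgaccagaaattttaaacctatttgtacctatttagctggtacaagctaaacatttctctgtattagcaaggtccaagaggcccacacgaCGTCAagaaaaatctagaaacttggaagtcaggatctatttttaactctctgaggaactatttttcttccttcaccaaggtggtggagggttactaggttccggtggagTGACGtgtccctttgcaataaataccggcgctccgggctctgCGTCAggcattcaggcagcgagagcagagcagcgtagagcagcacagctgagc
Miat promoter, chr5:112228899-112229198, minus strand: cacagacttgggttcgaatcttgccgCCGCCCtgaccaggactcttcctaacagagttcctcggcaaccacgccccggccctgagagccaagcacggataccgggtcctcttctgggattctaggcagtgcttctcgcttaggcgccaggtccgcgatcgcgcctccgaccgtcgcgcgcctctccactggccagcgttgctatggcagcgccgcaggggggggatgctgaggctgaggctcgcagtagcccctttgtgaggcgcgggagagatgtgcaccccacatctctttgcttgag
The response element core was found in 20.8% and the GC box in 35.7% of 32851 promoters of this length, so neither is rare. Of the 6 members with an entry, Malat1 and Meg3 held the core and Miat held the GC box. The CCAAT box, found in 37.4% of promoters, and TATAAA, in 13.6%, were also searched and lie in neither printed promoter. The whole palindrome of the response element, TGACGTCA, which includes the core, was in 1.79% of promoters and in that of Meg3 alone among the 6.

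Several measures of the libraries frame what follows. Values are FPKM, a read density per length of gene and size of library. Library sizes, as recovered from the values, were 27.7 to 29.8 in PV and 23.8 to 33.7 in Drd2 in units of 1e6 fragments, and 1 read in a gene of 1 kilobase was worth 0.0296 to 0.0420 FPKM. Pvalb was at 349 to 563 FPKM in PV and 10.4 to 99.5 FPKM in Drd2, and Drd2 at 0 to 0.0132 and 7.74 to 55.0 FPKM. All 15 general neuronal markers were above 0 in every library and summed to 3139 to 4215 FPKM in PV and 3942 to 4545 FPKM in Drd2. Mitochondrial genes took 9.62% to 31.3% of the FPKM total in PV and 3.74% to 5.20% in Drd2 (exact permutation p = 0.1, 2-sided, the smallest that 3 against 3 allows). Although every mouse is labelled male, Xist, the lncRNA of the inactive X chromosome in females, was at 8.68, 4.95 and 8.60 FPKM in PV replicates 6, 7 and 8. In Drd2 replicate 3 it was at 6.57 FPKM, while replicates 1 and 2 had 0.00165 and 0 FPKM. The Y-linked genes Ddx3y, Eif2s3y, Uty and Kdm5d together gave 0.00806, 0.00976 and 0 FPKM in PV and 36.1, 29.7 and 0 FPKM in Drd2 replicates 1, 2 and 3. So 4 of 6 libraries go against the label of sex, all PV libraries among them, and the difference between neuron classes was also taken with Drd2 replicate 3 as the only Drd2 library. Outside that library, neuron class and the Xist difference cannot be told apart.

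**Figure D1:**
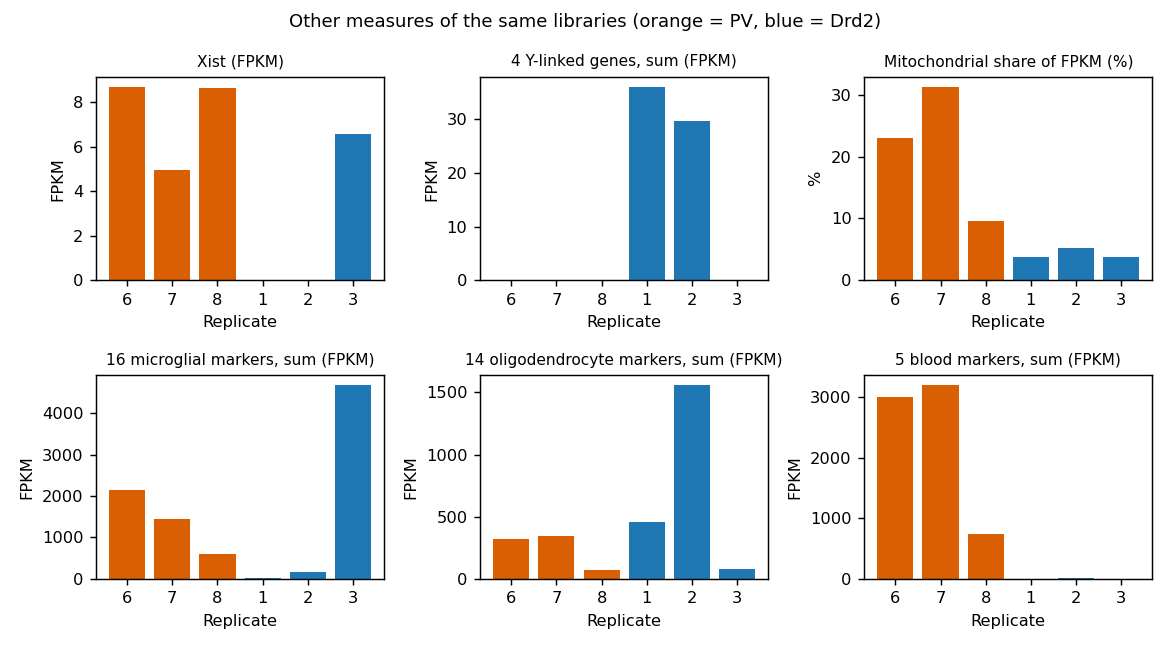
Xist, the sum of 4 Y-linked genes, the mitochondrial share and the summed markers of microglia, oligodendrocytes and blood in each library (bars; FPKM or percent of the FPKM total; PV replicates 6, 7 and 8 in orange, Drd2 replicates 1, 2 and 3 in blue). Xist is near 0 in Drd2 replicates 1 and 2 only, the libraries with Y-linked transcripts, and the microglial sum is highest in Drd2 replicate 3 at 4676 FPKM.

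The question of the design is how PV and Drd2 neurons of this nucleus differ, and among the 8 members the smallest p was that of Malat1, followed by Miat. By p Malat1 was 15th among the 817 long noncoding genes tested. In both, each PV library was above each Drd2 library. The other 6 overlapped between the classes. By limma on log2(FPKM + 1), with Benjamini-Hochberg adjustment over 11478 tested genes, 0 of the 7 tested members passed an adjusted p of 0.05, where 0.261% of all tested genes did (1 member did with limma voom on recovered reads). Pvalb and Drd2, the genes that name the classes, also missed it, with log2 folds of 3.93 and -4.79 (limma adjusted p = 0.0501 each). Missing the threshold therefore does not show that levels are equal. At an unadjusted p under 0.05 there was 1 member, Malat1, where 12.8% of all tested genes passed. Both members without overlap, 2 of 7, had PV above Drd2, as did 5.83% of all tested genes, and none had PV below, where 13.1% of all tested genes did. A fold above 0 was found for 2 of 7 members and 38.4% of all tested genes. The median log2 fold of the 7, PV minus Drd2, was -0.29, close to the -0.28 of all tested genes. Neat1 did not reach the filter of 1 FPKM in 3 libraries.

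Malat1 was at 1306, 2023 and 2133 FPKM in PV replicates 6, 7 and 8, against 704, 487 and 459 FPKM in Drd2 replicates 1, 2 and 3. The lowest PV library was above the highest Drd2 library. These values rest on 271937, 391158 and 422373 reads in PV and 165754, 102112 and 76368 reads in Drd2. The error of counting reads is thus small beside the spread between libraries, while the number of molecules behind the reads is not known. The means were 1821 ± 449 FPKM in PV and 550 ± 134 FPKM in Drd2 (SD, n = 3 each), a 3.31-fold ratio. The log2 fold was 1.72 ± 0.37 (SE), with a 95% interval from 0.88 to 2.56, and Malat1 missed the threshold in limma (adjusted p = 0.0958). It passed with limma voom on the reads recovered from the FPKM values (log2 fold 1.91, adjusted p = 0.0304), and the alternatives as a whole gave limma adjusted p-values between 0.0304 and 0.906.

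Malat1 was also compared among the libraries that share Xist. With Drd2 replicate 3 as the only Drd2 library, the log2 fold was 1.95. For Drd2 neurons this value rests on that library alone, which had the most Pvalb and the least Drd2 transcript of its group. Rescaling each library over nuclear genes, which takes the mitochondrial share out of the total, gave 1.84. Haemoglobin and erythroid markers (5 genes) also separated the groups, at 743 to 3204 FPKM in PV and 0 to 12.1 FPKM in Drd2 in sum, with all 3 tested genes passing in limma, and leaving these genes out of the total as well gave a log2 fold of 1.85. Such rescaling changes only the totals. The part of sex, mitochondrial share or blood in the Malat1 difference was not tested. By rank, Malat1 was between the 10th and the 18th gene of the table in PV libraries and between the 51st and the 90th in Drd2 libraries, per length.

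Miat was at 13.5, 13.5 and 12.03 FPKM in PV replicates 6, 7 and 8, against 6.24, 8.21 and 6.78 FPKM in Drd2 replicates 1, 2 and 3. The PV libraries lie close together, with a mean of 13.0 ± 0.857 FPKM, and above the Drd2 mean of 7.08 ± 1.02 FPKM (SD, n = 3 each), a 1.84-fold ratio. Reads numbered 3739, 3482 and 3170 in PV and 1957, 2290 and 1502 in Drd2. The log2 fold was 0.80 ± 0.51 (SE), with a 95% interval from -0.33 to 1.94, and did not pass (limma adjusted p = 0.542). That SE draws on the spread of other genes too. Unadjusted, the limma p was 0.146, and it was 0.0278 with no filter on low values (adjusted 0.649). With limma voom on recovered reads the unadjusted p was 0.0259 (adjusted 0.357). With Drd2 replicate 3 as the only Drd2 library the log2 fold of Miat was 0.85. Exons of Gm26953 on the opposite strand overlap those of Miat over 2260 bases. The strand setting of the counting is not stated, so reads of the pair cannot be told apart there. Gm26953 itself was at no more than 0.622 FPKM in PV and 0.817 FPKM in Drd2. The same limit holds for Meg3, with Gm26906 on the opposite strand over 1228 bases, a gene absent from the deposited values. It also holds for Malat1, with Gm37376 on the opposite strand over 453 bases, listed at 0 in every library.

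Neat1 was scarce. It was at 0.538, 0.657 and 0.333 FPKM in PV replicates 6, 7 and 8, against 0.865, 1.79 and 0.00202 FPKM in Drd2 replicates 1, 2 and 3. The Drd2 libraries enclose the PV libraries, and the last value is 1 read, against 606 and 1117 reads in the other Drd2 libraries and 196 to 378 in PV. In reads, which are not divided by length, Neat1 was above Pantr1 in PV replicate 7 (378 against 350). The same was so in Drd2 replicates 1 (606 against 510) and 2 (1117 against 686), and Neat1 was below Pantr1 in the other libraries. With no filter on low values the log2 fold of Neat1 was -0.21 (95% interval -1.51 to 1.10, limma adjusted p = 0.872). The library with 1 read of Neat1 had the most microglial and among the fewest oligodendrocyte transcripts: the 16 microglial markers summed to 592 to 2137 FPKM in PV and to 24.7, 159 and 4676 FPKM in Drd2 replicates 1, 2 and 3, and the 14 oligodendrocyte markers to 70.5 to 344 FPKM in PV and to 457, 1559 and 76.3 FPKM in these, with 7 of 14 at 0 in Drd2 replicate 3 and 9 of 16 microglial markers at 0 in Drd2 replicate 1. The part of these cells in the level of Neat1 was not tested, and in bulk libraries fewer cells of a type and less RNA per cell cannot be told apart.

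**Figure D2:**
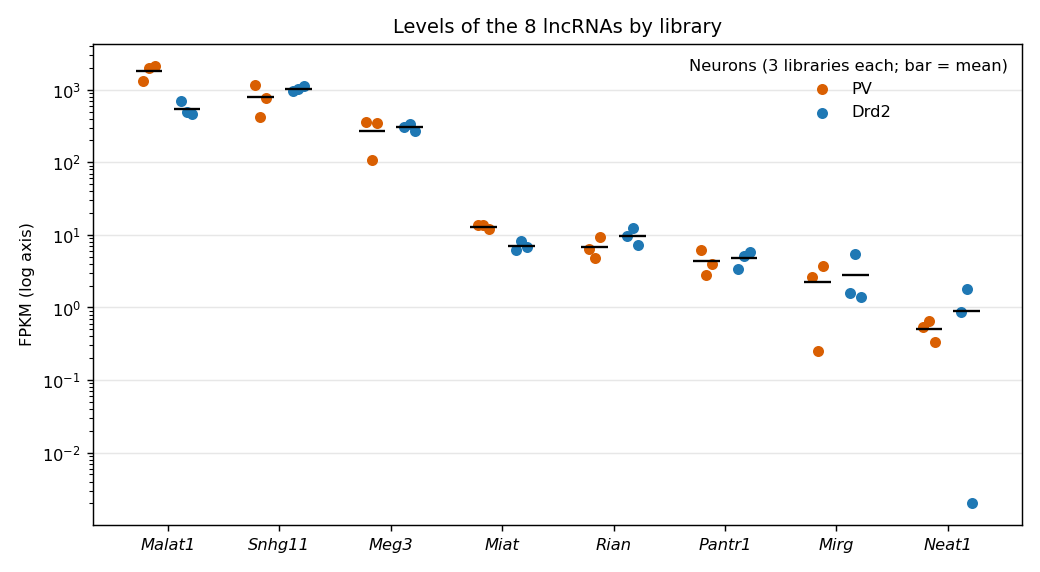
FPKM of each lncRNA (log axis) in the 3 PV libraries (orange, left of each pair) and the 3 Drd2 libraries (blue), with bars at the group means. PV and Drd2 points are apart for Malat1 and Miat and overlap for the other 6, and the single low point of Neat1 is Drd2 replicate 3 at 0.00202 FPKM.

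Transcripts of genes that encode proteins of these nuclear bodies were measured too. Of 23 genes of paraspeckle proteins, all tested, none passed over all genes in limma (1 at an unadjusted p under 0.05); 8 had a fold above 0 and 15 below, with a median log2 fold of -0.18. By p the leading ones were Hnrnph3, which encodes an RNA-binding protein, at 7.92 ± 6.86 FPKM in PV and 28.2 ± 8.46 FPKM in Drd2, Nudt21, for a subunit of the cleavage factor that sets polyadenylation sites, at 5.08 ± 0.749 and 12.3 ± 0.730 FPKM, and Nono, for a core paraspeckle protein, at 14.5 ± 12.1 and 28.4 ± 5.97 FPKM (SD, n = 3 each). Tardbp, which encodes the RNA-binding protein TDP-43, was at 13.9 ± 3.46 FPKM in PV and 7.07 ± 1.26 FPKM in Drd2. Of 18 tested speckle and splicing genes none passed (1 unadjusted), 9 had a fold above 0 and 9 below. Son, for a scaffold of nuclear speckles, was at 48.2 ± 11.4 FPKM in PV and 26.4 ± 5.35 FPKM in Drd2, while the splicing factor gene Srsf3 was at 16.9 ± 4.56 and 33.7 ± 1.72 FPKM. The remaining leading genes of this list were Pnn, at 17.6 ± 6.42 FPKM in PV and 7.86 ± 1.57 FPKM in Drd2, and Srsf2, at 19.3 ± 4.83 and 31.4 ± 2.48 FPKM. Of 4 genes whose proteins are known to bind Miat none passed in limma, adjusted or unadjusted: Sf1 was at 4.91 ± 2.62 FPKM in PV and 7.21 ± 4.72 FPKM in Drd2, Celf3 at 13.0 ± 10.2 and 26.6 ± 3.39 FPKM, Srsf1 at 21.8 ± 4.16 and 14.2 ± 1.34 FPKM, and Qk at 6.74 ± 4.61 and 5.73 ± 6.32 FPKM.

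The imprinted lncRNAs overlapped between the classes. Meg3 was at 360, 107 and 347 FPKM in PV replicates 6, 7 and 8, against 308, 334 and 267 FPKM in Drd2 replicates 1, 2 and 3. PV replicate 7 is the low one, and the other PV libraries are above all Drd2 libraries, so the log2 fold of -0.34 ± 0.49 (SE; 95% interval -1.44 to 0.76; limma adjusted p = 0.809) became 0.23 without that library. Rian was at 6.43, 4.80 and 9.47 FPKM in PV and at 9.59, 12.3 and 7.28 FPKM in Drd2, in the same order of libraries. Its log2 fold was -0.46 ± 0.56 (SE; interval -1.72 to 0.81; limma adjusted p = 0.775), from -0.68 without PV replicate 8 to -0.25 without PV replicate 7. Mirg was at 2.67, 0.253 and 3.77 FPKM in PV and at 1.59, 5.50 and 1.41 FPKM in Drd2, its lowest value again in PV replicate 7, with 51 reads against 245 to 1204 in the other libraries. Its log2 fold of -0.29 ± 0.76 (SE; interval -2.0 to 1.41; limma adjusted p = 0.898) changed sign without PV replicate 7 (0.29) or Drd2 replicate 2 (0.17).

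Within a library Meg3 exceeded its neighbours by far. Rian stood at 1.79%, 4.48% and 2.73% of the Meg3 level in PV replicates 6, 7 and 8 and at 3.12%, 3.69% and 2.73% in Drd2 replicates 1, 2 and 3, per length. Mirg stood at 0.741%, 0.236% and 1.09% of Meg3 in PV and at 0.515%, 1.65% and 0.528% in Drd2. Both ratios overlapped between the classes: with 1 FPKM added to both genes, the mean log2 ratio differed by -0.11 for Rian and by 0.05 for Mirg, PV minus Drd2, less than the SDs of 0.69 and 0.18 for Rian and 0.22 and 0.67 for Mirg (PV and Drd2, n = 3 each). Of the protein-coding genes of the domain, expressed from the paternal chromosome, Dlk1, a Notch-like membrane protein, was at 6.67, 5.40 and 0.00623 FPKM in PV and at 0, 1.28 and 0 FPKM in Drd2 (limma adjusted p = 0.501). Rtl1, a retrotransposon-derived gene, was at 2.31, 0.0227 and 1.20 FPKM in PV and at 0.820, 9.87 and 1.29 FPKM in Drd2 (limma adjusted p = 0.708), and Dio3, the thyroid hormone deiodinase, was listed at 0 in every library.

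Whether reads in the small RNA genes that the members carry come from the host RNA, a precursor or the processed molecule was not tested. RefSeq places 18 hairpins with 34 mature microRNAs on the strand of Meg3 (1 hairpin), Rian (3) and Mirg (14), with 33 different seeds; the only seed in common, GGUUGCC, belongs to a pair in Mirg. Sequences are given for the microRNA genes of Mirg listed above 0 in any library, 1 arm each, with the seed, bases 2 to 8, in capitals, that pair being miR-453 and miR-496a-5p:
mmu-miR-453: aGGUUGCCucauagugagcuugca
mmu-miR-496a-5p: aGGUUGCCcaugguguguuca
mmu-miR-154-5p: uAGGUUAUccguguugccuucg
mmu-miR-369-3p: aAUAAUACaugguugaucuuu
mmu-miR-3072-3p: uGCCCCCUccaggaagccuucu
Of the deposited microRNA and snoRNA genes that touch an exon of their host, 2 of 17 were above 0 in any library, and of those inside introns 7 of 12 were. The 2 were Mir369, which overlaps the exon by 1 base, and Mir3072, by 58 bases. How reads shared with a host exon were counted is not stated, so the 2 shares cannot be compared as levels. Mir453 had 64 reads in PV replicate 6 and none elsewhere, Mir154 had 12 reads in Drd2 replicate 2 alone, and Mir496a had 6 reads in PV replicate 6 and 8 in Drd2 replicate 2. Mir369 had 1 to 6 reads in every library, Mir3072 had 4 in PV replicate 6, and in Rian Mir370 had 1 read in PV replicate 6 and 2 in Drd2 replicate 3. Mir1188, in Rian, had 97 reads in Drd2 replicate 1 and none in the others. The snoRNA gene Gm24564 in Rian had 40, 0 and 68 reads in PV and 13, 0 and 37 reads in Drd2, and Gm25129 in Snhg11 had 32, 0 and 1 in PV and 0, 4 and 96 in Drd2. Mir369 apart, each of these genes was at 0 in some libraries, and so few reads from a library of long RNA give no level of a microRNA.

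Snhg11 was at 1172, 418 and 758 FPKM in PV replicates 6, 7 and 8, against 947, 1025 and 1132 FPKM in Drd2 replicates 1, 2 and 3. PV held both the highest and the lowest library, with a coefficient of variation of 48.3% in PV and 8.94% in Drd2. The log2 fold was -0.52 ± 0.43 (SE; interval -1.48 to 0.44; limma adjusted p = 0.647), and moved both ways, to -0.13 without PV replicate 7 and to -0.87 without PV replicate 6 (limma adjusted p = 0.250). Of 17 other snoRNA host genes tested none passed in limma (1 unadjusted); 12 had a fold above 0 and 5 below, with a median log2 fold of 0.31. The leading ones by p were Snhg16, at 2.72 ± 1.31 FPKM in PV and 0.423 ± 0.717 FPKM in Drd2, Snhg8, at 29.1 ± 18.6 and 12.1 ± 2.01 FPKM, Snhg17, at 0.461 ± 0.653 and 1.81 ± 0.526 FPKM, and Snhg9, at 18.6 ± 5.91 and 9.09 ± 6.67 FPKM (SD, n = 3 each).

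Pantr1 was at 6.20, 2.84 and 3.92 FPKM in PV and at 3.39, 5.13 and 5.74 FPKM in Drd2, in the same order of libraries. The groups overlapped, with a log2 fold of -0.14 ± 0.63 (SE; interval -1.55 to 1.28; limma adjusted p = 0.946). Its neighbour Pou3f3 was lower still, at 0.980, 0.234 and 0.324 FPKM in PV and 0.364, 1.66 and 1.22 FPKM in Drd2, and was not tested. Of its relatives, Pou3f2 averaged 1.42 ± 0.885 FPKM in PV and 0.373 ± 0.577 FPKM in Drd2 (limma adjusted p = 0.577), Pou3f4 1.61 ± 1.31 and 0.0531 ± 0.0920 FPKM, and Pou3f1 0.0621 ± 0.0710 FPKM in PV, listed at 0 in every Drd2 library.

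**Figure D3:**
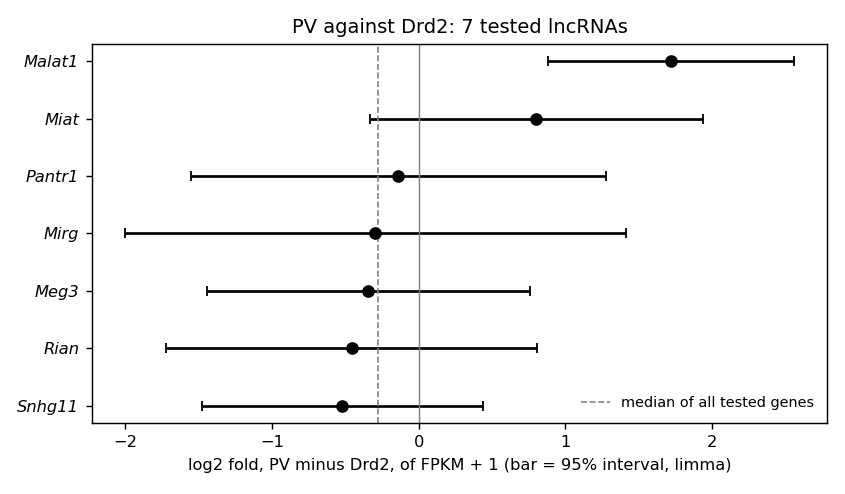
Log2 folds, PV minus Drd2, of FPKM + 1 for the 7 tested lncRNAs (points) with 95% intervals from limma (bars); the dashed line is the median of all tested genes at -0.28. Only the interval of Malat1, from 0.88 to 2.56, leaves out 0; it is not adjusted for the number of genes tested.

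Ordered by level per length, the classes differed at the top. In PV the order of means was Malat1, Snhg11, Meg3, Miat, Rian, Pantr1, Mirg and Neat1, and the ranges of neighbours overlapped only from Rian downwards. In Drd2 it was Snhg11, Malat1, Meg3, Rian, Miat, Pantr1, Mirg and Neat1, with overlapping ranges for Rian and Miat, for Pantr1 and Mirg, and for Mirg and Neat1. Malat1 was the most abundant long noncoding gene per length in each of the 3 PV libraries, and Snhg11 in each of the 3 Drd2 libraries. The level of Malat1 was 1.11, 4.84 and 2.81 times that of Snhg11 in PV replicates 6, 7 and 8 and 0.743, 0.475 and 0.405 times in Drd2 replicates 1, 2 and 3. Against Meg3 it was 3.63, 18.9 and 6.15 times in PV and 2.29, 1.46 and 1.72 times in Drd2. Neither ratio overlapped between the classes; both depend on no library's scaling and were chosen after the values were seen. The ratio of Neat1 to Malat1, at 0.0412%, 0.0325% and 0.0156% in PV and 0.123%, 0.368% and 0.000440% in Drd2, had its lowest value in Drd2 replicate 3, so the percentages overlap. With 1 FPKM added to both genes the log2 ratio averaged -10.21 ± 0.46 (SD) over the 3 PV libraries and -8.28 ± 0.74 (SD) over the 3 Drd2 libraries, which differ by -1.93 and do not overlap; the added 1 FPKM is larger than most Neat1 values.

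**Figure D4:**
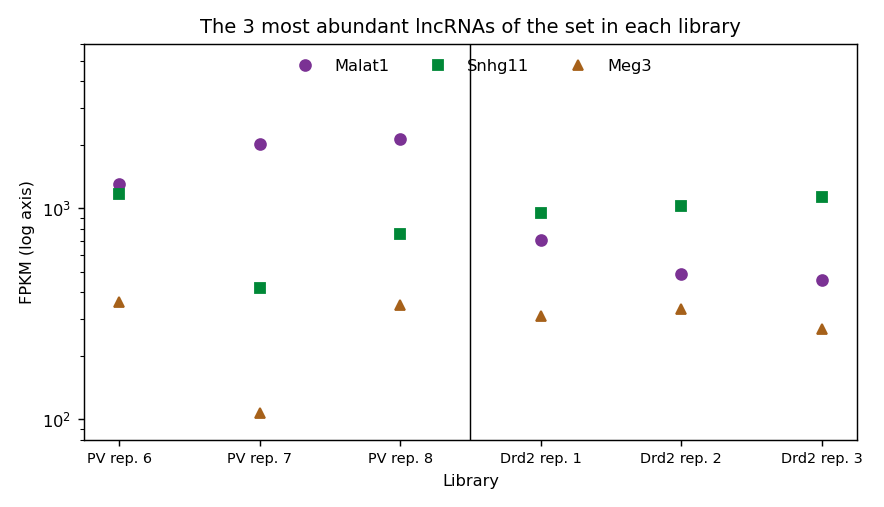
FPKM (log axis) of Malat1, Snhg11 and Meg3 in each library, PV left and Drd2 right of the line. Malat1 is above Snhg11 in every PV library, narrowly in PV replicate 6 at 1306 against 1172 FPKM, and below it in every Drd2 library.

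The members did not move as one set across libraries. Of the 7 tested, 5 (Meg3, Rian, Mirg, Snhg11 and Pantr1) had their lowest value in PV replicate 7, the library with the fewest genes at 1 FPKM or more (8610, against 10293 to 12398 in the others) and the largest mitochondrial share, 31.3%. Miat had its highest value and Malat1 its second highest in that same library. After centring each gene on its own mean, the root mean square difference between members over the 6 libraries was smallest for Snhg11 and Pantr1, at 0.29 on the log2(FPKM + 1) scale, and for Meg3 and Snhg11, at 0.30. It was largest for Mirg and Malat1, at 1.34. Summed, the 8 made up 0.574% to 0.888% of the FPKM total in PV and 0.530% to 0.547% in Drd2; without Malat1 the sums were 0.122% to 0.396% and 0.352% to 0.401%.

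**Figure D5:**
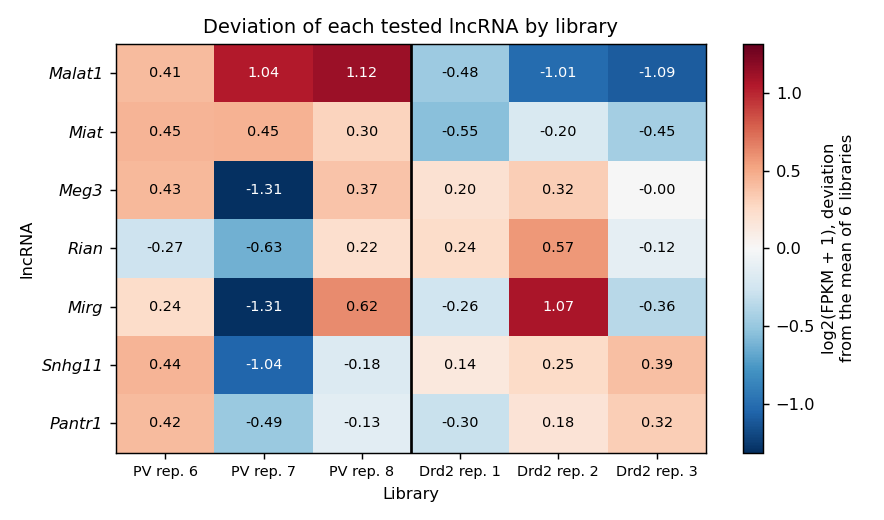
Deviation of each tested lncRNA from its own mean over the 6 libraries on the log2(FPKM + 1) scale (numbers and colour; red above, blue below; PV left, Drd2 right of the line). Malat1 and Miat are above their mean in all PV libraries and below it in all Drd2 libraries, and the column of PV replicate 7 is blue for the other 5.

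By the same measure, the named genes most like Malat1 among those tested were Mtx3, a protein of mitochondrial import, Scn2b, a beta subunit of voltage-gated sodium channels, and Zfp275, a zinc finger protein, with differences of 0.14, 0.15 and 0.16, against a root mean square of 0.91 for Malat1 itself about its mean. Scn2b was at 26.7, 48.8 and 44.8 FPKM in PV and 15.2, 13.2 and 9.77 FPKM in Drd2. Miat was nearest to Gtf2a1, a general transcription factor (0.09), the ubiquitin ligase Rnf166 (0.11) and Lsm5, of the LSM complex that binds U6 RNA (0.11). Meg3 was nearest to Nfasc, the axonal adhesion protein neurofascin (0.13), the riboflavin kinase Rfk (0.13) and Syp, the vesicle protein synaptophysin (0.14). Syp was at 99.5, 28.3 and 105 FPKM in PV and 72.4, 77.0 and 62.4 FPKM in Drd2, with the same dip in PV replicate 7. The nearest genes were Eif3j1, Wdr47 and Stx5a for Rian, Scamp5, Retreg2 and Pphln1 for Mirg, Rangap1, Ei24 and Ntn3 for Snhg11 and Rrnad1, Cyb5b and Nmt1 for Pantr1, at 0.06 to 0.22. Over only 6 libraries such a likeness is a description of these values.

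Other lncRNAs known from brain were measured for comparison. Of 15 tested none passed in limma (unadjusted p under 0.05 in 6), 11 had a fold above 0 and 4 below, with a median log2 fold of 0.38. Oip5os1, the conserved RNA also called Cyrano, was at 21.6, 16.7 and 18.2 FPKM in PV and at 4.46, 4.70 and 5.16 FPKM in Drd2. The groups stand apart (limma adjusted p = 0.185). Rmst, an RNA of neural development, was at 25.8, 0.258 and 5.63 FPKM in PV and at 42.1, 35.1 and 48.3 FPKM in Drd2, and Ftx, a neighbour of Xist, at 3.31, 1.40 and 1.70 FPKM and at 11.8, 4.87 and 9.36 FPKM. Bc1, a dendritic RNA, was at 20.4, 397 and 56.7 FPKM in PV and at 24.9, 21.2 and 1.498 FPKM in Drd2, with its highest value in PV replicate 7. Across all 817 long noncoding genes tested, 0.367% passed in limma and 14.2% had an unadjusted p under 0.05, and the median log2 fold was -0.18.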

How the data were processed

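RNA was measured by sequencing in 6 libraries, made with a SMARTer mRNA kit per the labels' protocols. The authors deposited FPKM values for 55414 genes; the submitters' processing notes name STAR without a version, together with mm10, hg38 and GRCh38. Quantifier, strandedness and annotation release: not given in the sources used here. GENCODE M21 held 94.1% of the identifiers. FPKM times its exon length gave whole reads (within 0.01 read) for 97.9% to 98.7% of values up to 20 reads; among the members the lengths of Rian and Snhg11 did not, so their reads are not given. PCR copies are not independent molecules, so read numbers can understate the error of sampling molecules, whose number is not known. Tests covered the genes that reached 1 FPKM in 3 or more libraries, on log2(FPKM + 1), which understates folds of low genes, with limma 3.58.1 (R 4.3.3), intensity trend, 2-sided, Benjamini-Hochberg, threshold 0.05, after a test on simulated data. Alternatives were other pseudocounts, filters, scalings, variance models, voom and left-out libraries. Members and lists were chosen with earlier results of these data known. Named were the members, the 3 genes nearest to each, all genes of the Dlk1-Dio3 and Pou3f lists, up to 4 genes per other list by p, and small RNA genes within the members. Xist, the Y-linked genes, Gm26953 and Gm37376 were named after their values were seen, and Gm26906 for its overlap with Meg3.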

Additional observations from a re-analysis of the deposited data

How the results depend on the processing

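The number of genes past the threshold was 30 and moved to 4 and 68 with pseudocounts of 0.1 and 5 FPKM, 0 with no filter on low values (limma; 1509 at an unadjusted p under 0.05), 68 with quantile normalization (22 higher and 46 lower in PV, against 5 and 25 in the main result; voom gave 13 and 14), 46 with no trend, 53 with robust variances, 105 with array weights, 18 without PV replicate 7 and Drd2 replicate 3 together, and 0 without Drd2 replicates 1 and 2 together (limma; 600 at an unadjusted p under 0.05; an alternative chosen after seeing the data). Leaving out each library in turn it ran from 1 to 56, with 1, 2 and 3 without Drd2 replicates 3, 1 and 2 and 56 without PV replicate 6; the cause was not tested.

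Malat1 passed with voom (log2 fold 1.91) and in no other alternative; its log2 fold ran from 1.51 to 1.95 over 21 alternatives, and Miat, Rian and Snhg11 also kept their sign in all of theirs. The 3 members that changed sign, none past the threshold, were Meg3, Mirg and Pantr1. Meg3 did so without PV replicate 7 (0.23), and without PV replicate 7 and Drd2 replicate 3 (0.14). Mirg did so with quantile normalization (0.19), without PV replicate 7 (0.29) and without Drd2 replicate 2 (0.17). It also did so without the same pair (0.029) and without Drd2 replicates 1 and 2 (0.22). Pantr1 did so with median-of-ratios scaling (0.022), quantile normalization (0.21), voom (0.11), without PV replicate 7 (0.072) and without the same pair (0.20). Leaving out 1 library each, Rian ran from -0.68 to -0.25, Snhg11 from -0.87 to -0.13, Meg3 from -0.64 to 0.23, Mirg from -0.68 to 0.29 and Pantr1 from -0.38 to 0.072. Scaling moved the median log2 fold of all genes, -0.28 as reported, to -0.50 (TPM), -0.12 (median of ratios) and 0.05 (quantile). Over other pseudocounts and left-out libraries, the PV minus Drd2 difference in log2 ratio took both signs for Rian to Meg3 (-0.48 without PV replicate 7 to 0.21 without PV replicate 6) and for Mirg to Meg3 (-0.29 with 0.1 FPKM added to 0.44 without Drd2 replicate 2), and ran from -2.20 to -1.51 for Neat1 to Malat1. No paired analysis was possible because the groups share no replicate number. With 3 libraries a group, the intervals of Mirg and Pantr1, and of Neat1 with no filter on low values, take in folds beyond 1 log2 unit on both sides of 0.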

Other observations

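Among the 817 long noncoding genes tested, 3 passed in limma, all lower in PV and all without an established name: Gm11418, at 0 FPKM in every PV library and 105, 43.9 and 56.4 FPKM in Drd2 replicates 1, 2 and 3 (adjusted p = 0.0113), Gm46376, at 0, 0 and 0.0539 FPKM in PV and 30.3, 17.7 and 21.8 FPKM in Drd2 (adjusted p = 0.0282), and Gm31107, at 0 FPKM in every PV library and 16.5, 16.5 and 12.8 FPKM in Drd2 (adjusted p = 0.0384). On the other side, AW495222 was at 7.96, 23.4 and 22.7 FPKM in PV and listed at 0 in every Drd2 library, and just missed the threshold (limma adjusted p = 0.0501). These 4 were chosen after their values were seen.

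Activity-related genes, 12 of 14 tested, all had a fold below 0, while 38.4% of all tested genes had a fold above 0. In limma none of them was called, with 8 under 0.05 before adjustment, as were 12.8% of all tested genes. Their median log2 fold was -2.07, against -0.28 for all tested genes. Egr1 was at 22.5 ± 5.27 FPKM in PV and 73.8 ± 24.97 FPKM in Drd2 (SD, n = 3 each). Summed markers of other cells were 608 to 772 FPKM in PV and 193 to 666 FPKM in Drd2 for astrocytes (13 genes), 19.6 to 25.02 and 1.67 to 10.4 FPKM for oligodendrocyte precursors (7), 3.73 to 22.7 and 0.0226 to 10.1 FPKM for ependymal cells (6), 0.113 to 5.49 and 0.00185 to 0.519 FPKM for vessels (10) and 2.31 to 17.4 and 0 to 0.859 FPKM for GABA neurons (3). Their part in the levels of the lncRNAs was not tested. Markers of glutamate neurons (4) summed to 126 to 152 FPKM in PV and 120 to 151 FPKM in Drd2.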
